A study of Mus musculus with 18 samples.

Results

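Livers of mice that went through ischemia and reperfusion under oridonin (group IR-Ori) were compared with livers of sham-operated mice. All 6 libraries labelled IR-Ori and all 6 labelled sham were taken, 12 of the 18 in the study. The mice were wild-type C57BL/6. Sham animals were anaesthetised and had the abdomen opened, with no vessel clamped. In IR-Ori, clips on the portal triad made about 70% of the liver ischemic for 1 h, the clips were taken off, and blood flowed again for 6 h. A group of 6 libraries with the same ischemia and reperfusion but no oridonin (IR) is used for reference values. The sources used here give neither the dose, route and time of oridonin nor whether sham and IR animals received its vehicle. The labels do not state that each library is a separate animal, so a p-value here reflects the variation among libraries, which may be partly technical. The question addressed is how far the treated, injured liver still stood apart from uninjured liver.

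Oridonin is a diterpenoid of the herb Isodon rubescens and is known to bind the inflammasome sensor NLRP3. When blood returns to ischemic liver, chaperone genes under heat shock factor and immediate early genes such as Fos and Atf3 are switched on first. Chemokines made under NF-kB then draw in neutrophils, and hepatocytes answer interleukin 1 and interleukin 6 by making acute phase proteins. Hepatocyte genes of lipid, bile acid and drug metabolism often decline in the same setting.

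Each library held 12755980 to 19798188 counts in sham and 12770586 to 16536186 in IR-Ori. Hepatocyte markers dominated all of them, with Alb between 6522 and 27702 FPKM (counts per exon length and library total). Mitochondrially encoded genes took 10.3% to 42.8% of the counts in sham and 14.1% to 32.0% in IR-Ori, on average 21.9 ± 12.9% and 27.1 ± 6.60% (SD, n = 6 each). The difference of 5.22 percentage points was within the spread (two-sided exact permutation test, n = 6 each, p = 0.370; the smallest p possible is 0.002165). Because the FPKM total includes mitochondrial counts, FPKM of nuclear genes fall where this share is large.

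**Figure D1:**
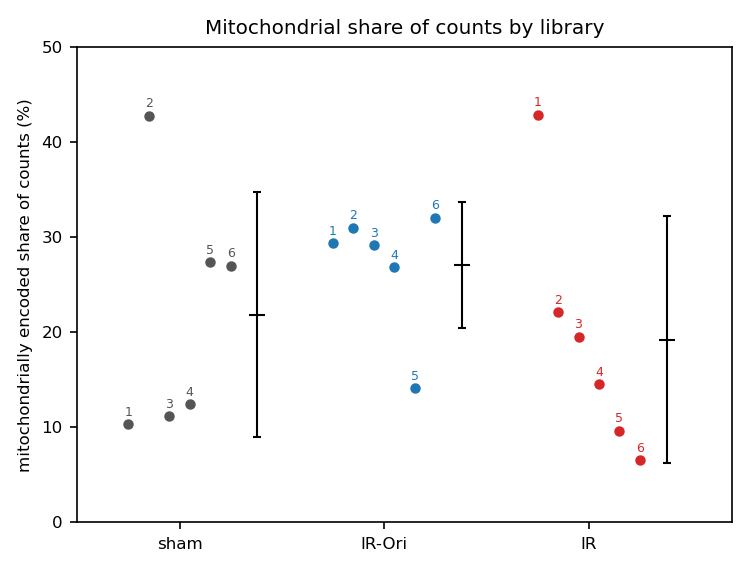
Share of counts from mitochondrially encoded genes in percent (vertical axis) for each library, numbered as labelled, in sham, IR-Ori and IR, with mean and SD as black bars. IR-Ori 5 is at 14.1%, while the other 5 IR-Ori libraries lie between 26.8% and 32.0%.

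No gene passed the threshold between IR-Ori and sham in either direction. Of 14595 genes tested with edgeR's quasi-likelihood test (Benjamini-Hochberg adjusted p under 0.05), 0 (0%) were higher and 0 (0%) lower, and the smallest adjusted p was 0.374. At an unadjusted p under 0.05, 926 genes (6.34%) were higher and 534 (3.66%) lower. DESeq2 on the same counts called 34 genes higher and 4 lower, and limma on log2(FPKM + 1) called 0 either way. In the same edgeR fit, IR without oridonin had 806 genes (5.52%) higher and 345 (2.36%) lower than sham. These comparisons share the sham libraries.

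A missing call is not evidence of equal levels. The 95% interval of the log2 fold change lay wholly between -1 and 1 for 8082 of 14595 genes (55.4%). The estimate itself was at least 1 for 452 genes (3.1%) and at most -1 for 193 (1.32%), with a median over all genes of -0.01. FPKM of the 6 IR-Ori libraries lay wholly above those of the 6 sham libraries for 25 genes (0.171%) and wholly below for 5 (0.0343%). The counts at an unadjusted p turned on single libraries. Without IR-Ori 5 there were 1429 higher and 1898 lower genes and a smallest adjusted p of 0.0723, and without sham 2 there were 1394 and 1763. Higher genes numbered 572, 469 and 481 without IR-Ori 2, 3 or 4. Lower genes numbered 251, 284 and 281 without sham 1, 3 or 4 and 856 without sham 5. They numbered 313, 282, 267 and 271 without IR-Ori 1, 2, 3 or 4.

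Of 16 heat shock chaperones, which refold damaged proteins, 0 passed the test against sham. Their median log2 fold change was -0.30, against -0.01 over all genes tested and 1.62 for the list in IR. It was -0.10 with the mitochondrial share as a covariate and -0.47 without IR-Ori 6. The interval lay within -1 to 1 for 3 of the 16, so levels close to sham were not shown for the others. Hspa1a, an inducible HSP70 (chr17:35188166-35191132 of GRCm39, minus strand), had 0.02, 0.205 and 1.11 FPKM in sham (lowest, median, highest). In IR-Ori it had 0.15, 0.475 and 0.73, and in IR 10.8, 37.7 and 135. The IR-Ori values lay inside the sham range, and every IR library lay above both groups. Hspa1b is a near-identical copy, so reads may be split between the pair.

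The log2 fold change of Hspa1a against sham was 0.42 in IR-Ori (95% interval -1.06 to 1.9, adjusted p = 0.819) and 7.40 in IR (adjusted p = 1.0e-04, both edgeR). Dnajb1, an HSP70 co-chaperone, was at -0.46 (interval -1.94 to 1.01) and Hsp90aa1 at -0.27 (-1.25 to 0.72). The small heat shock protein gene Hspb1 was at 0.75 (-0.27 to 1.77). Its FPKM was 17.4 to 25 in IR-Ori 1, 3, 4 and 6, and 6.71 to 7.74 in all sham libraries but sham 5, which had 22.9. Directly between the reperfused groups, 15 of the 16 chaperones were lower in IR-Ori than in IR at adjusted p under 0.05, where 3.01% of all genes were. That count was 8 without IR-Ori 1 or IR 4 and 9 without IR 5 or IR 6.

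The RefSeq promoter of Hspa1a (GRCm38.p6, 250 bases before to 50 after the start, written 5′ to 3′ on the strand of the gene) is shown because every IR-Ori value of the gene lay inside the sham range and below every IR value. Capitals mark the heat shock element, searched on both strands as GAANNTTC or TTCNNGAA, found 1 time here (chr17:34972107-34972406, minus strand) and in 15.1% of the 32851 promoters of the table.
Hspa1a: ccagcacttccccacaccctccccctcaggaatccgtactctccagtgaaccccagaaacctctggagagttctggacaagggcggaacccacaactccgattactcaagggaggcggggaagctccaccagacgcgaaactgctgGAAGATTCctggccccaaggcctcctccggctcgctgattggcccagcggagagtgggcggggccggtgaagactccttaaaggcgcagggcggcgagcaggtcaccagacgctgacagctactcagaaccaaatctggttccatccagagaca

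Immediate early genes, transcription factors made within minutes of a stimulus, gave 0 of 19 calls and a median log2 fold change of 0.27. That median was 0.17 without IR-Ori 2, 0.60 without sham 1 and 0.65 with the mitochondrial share as a covariate. Atf3 had 0.63, 1.19 and 2.01 FPKM in sham and 0.87, 3.06 and 7.62 in IR-Ori, with 13.6, 92.1 and 724 in IR. IR-Ori 1 to 4 lay above every sham library, at 2.51 to 7.62, and IR-Ori 5 and 6 lay within the sham range. The estimate was 1.48 (interval -0.21 to 3.18, edgeR adjusted p = 0.501). Fos, with 0.34 to 3.12 FPKM in sham and 0.93 to 3.70 in IR-Ori, was at 0.56 (-1.17 to 2.30).

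Egr1 (0.66, -0.85 to 2.18), Klf6 (0.93, -0.28 to 2.13) and Jun (0.81, -0.47 to 2.09) had intervals that held 0 on the log2 scale. For these genes the IR estimates were between 4.36 and 4.98. The dual-specificity phosphatase gene Dusp1, which switches off MAP kinases, was at 1.34 (-0.07 to 2.74). Its FPKM reached 56.2 in IR-Ori 3 and 42.4 in IR-Ori 4, against at most 19.7 in sham. Dusp1 had the highest estimate of the 9 genes of this family, of which 6 were below 0 and 0 were called. The family median was -0.28, against 2.34 in IR, and 0.25 with the mitochondrial share as a covariate. Dusp16 was at -0.48 (-1.27 to 0.32). Against IR, 14 of the 19 immediate early genes were lower in IR-Ori at adjusted p under 0.05, where 3.01% of all genes were.

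Cytokines and chemokines gave 0 of 21 calls, and their estimates ran from -0.89 to 1.9 with a median of 0.04. The median was between -0.05 and 0.26 over 29 alternative fits, lowest without sham 3, and 3 of the 21 intervals lay within -1 to 1. Cxcl1 (chr5:91039100-91040974 of GRCm39) had 15.6, 36.1 and 155 FPKM in sham and 36.7, 172 and 479 in IR-Ori. IR-Ori 2, 3 and 4 lay above every sham library, at 207 to 479, and above or within the IR range of 46.6 to 271. Its log2 fold change was 1.9 (0.42 to 3.38, edgeR adjusted p = 0.492), and that of IR against sham was 1.28 (adjusted p = 0.28).

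Cxcl2, a related ligand of the same receptor, had 0.00 to 0.52 FPKM in sham, 0.04 to 1.17 in IR-Ori and 4.30 to 11.1 in IR. IR-Ori 1 to 4 lay above every sham library and all 6 lay below every IR library. Its estimate was 1.59 (0.23 to 2.95, adjusted p = 0.498), and it was lower than in IR by edgeR, at -3.39 (adjusted p = 0.0057). Ccl2, which draws monocytes, was at 0.90 (0.04 to 1.76), and Ccl7 at 0.19 (-1.03 to 1.42). Il1b (0.44, -0.47 to 1.35) and Il1rn, the interleukin 1 receptor antagonist gene (0.32, -0.48 to 1.11), had overlapping levels in sham and IR-Ori. Nlrp3 was below 0.4 FPKM in all 12 libraries, with an estimate of -0.28 (-1.17 to 0.62).

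The promoters of Cxcl1 (chr5:90890995-90891294, plus strand) and Cxcl2 (chr5:90903649-90903948, plus strand) are shown, from RefSeq on GRCm38.p6, because the genes are neighbours with unlike levels relative to IR. Capitals mark the NF-kB motif GGGANTTTC, searched on both strands. Each window held 1 match, and 1.11% of all promoters in the table held any.
Cxcl1: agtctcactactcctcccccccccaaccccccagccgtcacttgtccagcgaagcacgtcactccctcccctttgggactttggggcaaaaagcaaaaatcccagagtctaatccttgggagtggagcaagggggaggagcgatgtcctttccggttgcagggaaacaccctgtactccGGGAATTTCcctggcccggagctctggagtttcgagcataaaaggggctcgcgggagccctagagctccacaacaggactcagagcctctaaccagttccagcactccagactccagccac
Cxcl2: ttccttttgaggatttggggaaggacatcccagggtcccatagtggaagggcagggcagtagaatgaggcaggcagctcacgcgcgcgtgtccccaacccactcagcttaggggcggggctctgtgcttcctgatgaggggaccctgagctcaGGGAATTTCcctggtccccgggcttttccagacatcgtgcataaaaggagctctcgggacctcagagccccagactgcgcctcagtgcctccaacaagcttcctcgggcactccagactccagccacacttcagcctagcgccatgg

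**Figure D2:**
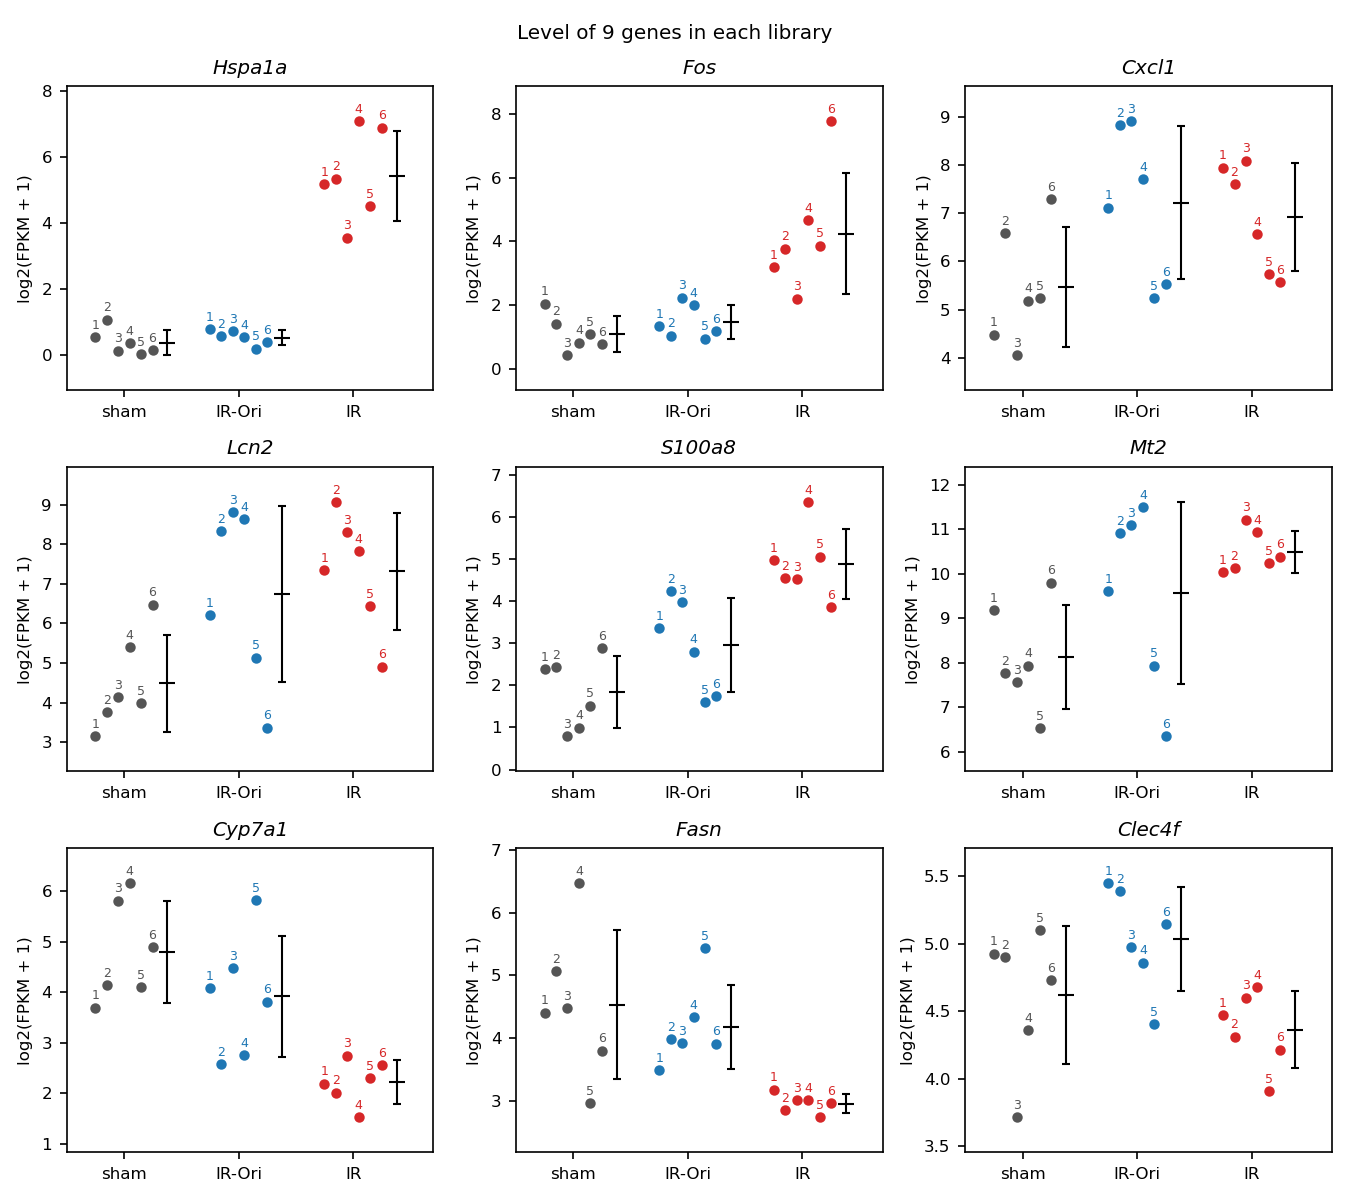
Levels of 9 genes as log2(FPKM + 1) (vertical axes, each with its own range) in each library, numbered as labelled, by group (horizontal axes), with mean and SD as black bars. IR-Ori overlaps sham for each of the 9 genes, while for Lcn2, Mt2 and Cxcl1 IR-Ori 2, 3 and 4 lie above every sham library.

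The 14 NF-kB subunits and feedback inhibitors had 0 calls and a median of 0.18, with 2 higher at an unadjusted p under 0.05, where 6.34% of all genes were. Tifa, an adaptor that activates TRAF6 and was picked after its values were seen, had 2.35, 5.07 and 10.7 FPKM in sham and 5.74, 25.8 and 61.6 in IR-Ori. IR-Ori 1 to 4 lay above all sham libraries, and IR-Ori 2, 3 and 4 also above all IR libraries, whose highest value was 28.7. Its estimate was 2.45 (1.13 to 3.77, edgeR adjusted p = 0.374). Il1r1, the signalling interleukin 1 receptor, had 7.87 to 51.9 FPKM in sham, 14.2 to 239 in IR-Ori and an estimate of 2.05 (0.78 to 3.32). Bcl3 (0.98, 0.17 to 1.78) and Tnip2 (0.70, 0.13 to 1.27), regulators of NF-kB and the 2 members with the smallest p, had intervals above 0. None of these 4 passed after adjustment, but DESeq2 called Tifa (adjusted p = 0.0298).

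Neutrophil markers had a median of 1.51 on the log2 scale over 14 members tested, against -0.01 over all genes and 3.41 for the same list in IR against sham. None passed the test in edgeR, 9 were higher at an unadjusted p under 0.05, where 6.34% of all genes were, and all 14 estimates were above 0. The count was 5 in a fit of the 12 libraries alone and 5 with limma on log2(FPKM + 1), where the median was 0.70. Directly against IR, 4 of the 14 were lower in IR-Ori at adjusted p under 0.05, where 3.01% of all genes were. That number was 8 with DESeq2, and 0 without IR-Ori 1 or IR 4 or with a replicate block. It was also 0 among libraries with a mitochondrial share of at least 15%, which leaves out sham 1, 3 and 4, IR-Ori 5 and IR 4, 5 and 6. In bulk tissue, fewer cells of a type and less RNA per cell cannot be told apart. S100a8, a calcium-binding protein abundant in neutrophils, had 0.73, 3.06 and 6.37 FPKM in sham, 2.04, 7.67 and 17.9 in IR-Ori, and 13.6, 26.5 and 81.1 in IR. IR-Ori 1, 2 and 3 lay above every sham library, and IR-Ori 4, 5 and 6 lay within the sham range.

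The estimate for S100a8 was 1.47 (0.23 to 2.70, edgeR adjusted p = 0.497). The neutrophil chemokine receptor gene Cxcr2 was at 2.10 (0.70 to 3.51), the decoy receptor gene Il1r2 at 2.60 (1.09 to 4.10) and Retnlg at 1.72 (0.55 to 2.88). DESeq2 called Il1r2 higher (adjusted p = 0.0460). Ly6g, a defining neutrophil marker, was not tested, with at most 0.26 FPKM in any library.

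Monocyte and macrophage genes were mixed. The list of 12 recruited monocyte and macrophage markers had 0 calls and a median of 0.16, against 1.61 in IR. It was 0.05 without sham 1, 0.31 without sham 6, 0.27 without IR-Ori 6 and -0.0051 among libraries with a mitochondrial share of at least 15%. Chil3, a member of this list, had 0.03 to 0.70 FPKM in sham, 0.30 to 0.62 in IR-Ori and 2.42 to 27.9 in IR. Its estimate against sham in IR-Ori was 0.07 (-1.13 to 1.28). Cd14, a co-receptor for endotoxin, was at 1.77 (0.67 to 2.87), with 7.05 and 9.68 FPKM in IR-Ori 3 and 4 and at most 2.40 in sham. Itgam was at 0.80 (0.11 to 1.48). Spp1, also on this list, went the other way, at -0.73 (-1.35 to -0.11). The 13 Kupffer cell markers had a median of -0.18 and 0 calls. The median had no stable sign, at 0.04 without sham 1, 0.07 without sham 5, -0.30 without sham 6 and -0.12 without IR-Ori 3. Clec4f, a lectin of resident Kupffer cells, had 12.1 to 33.4 FPKM in sham and 20.2 to 42.7 in IR-Ori (0.38, -0.15 to 0.90).

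Acute phase proteins, secreted by hepatocytes in inflammation, stood higher in IR-Ori in estimate. Of 26 members, 25 had an estimate above 0, 0 passed in edgeR and the median was 0.55, against 0.70 in IR. At an unadjusted p under 0.05, 9 were higher, where 6.34% of all genes were, and 5 when sham 1, 3 or 5 or IR-Ori 2, 3 or 4 was left out. Lcn2, an iron-siderophore binder (chr2:32274645-32278264 of GRCm39, also on the neutrophil list), had 7.86, 15.7 and 87.6 FPKM in sham. In IR-Ori it had 9.28, 197 and 446, and in IR 29.0, 194 and 535. IR-Ori 2, 3 and 4, at 321 to 446, exceeded every sham library. IR-Ori 5 at 34.1 and IR-Ori 6 at 9.28 lay within the sham range.

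The estimate for Lcn2 was 2.81 (1.04 to 4.58, edgeR adjusted p = 0.446), and IR was at 2.78 (adjusted p = 0.049, 0.0523 to 0.103 when 1 library other than sham 6, IR-Ori 5, IR-Ori 6 or IR 6 was left out). The orosomucoid genes gave 1.17 for Orm1 (0.34 to 2.00), 1.58 for Orm2 (0.57 to 2.59) and 2.39 for Orm3 (0.79 to 3.99). Saa1 and Saa2, serum amyloid genes whose near-identical sequences may share reads, were at 1.65 (-0.04 to 3.34) and 2.07 (0.01 to 4.14). Saa1 ranged from 33.2 to 442 FPKM in sham and from 35.6 to 1038 in IR-Ori, so the groups overlapped. Hp, the haemoglobin-binding haptoglobin, was at 0.35 (-0.28 to 0.99).

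Metallothioneins, small proteins that bind zinc and copper, were also high in some IR-Ori libraries and sham-like in others. Mt1 had 128, 391 and 1230 FPKM in sham and 150, 2138 and 3149 in IR-Ori. Mt2 (chr8:94899292-94900196 of GRCm39) had 92.0, 231 and 891 in sham and 80.6, 1355 and 2898 in IR-Ori. For both genes IR-Ori 2, 3 and 4 lay above every sham library, and IR-Ori 5 and 6 did not. The estimates were 1.89 (0.57 to 3.21) and 1.85 (0.46 to 3.25), and those of IR were 1.70 and 1.93. Slc39a14, a zinc and iron importer, was at 1.05 (0.30 to 1.80), with 126 and 114 FPKM in IR-Ori 3 and 4 and at most 42.7 in sham. The 16 genes of iron and metal handling had a median of -0.02 and 0 calls.

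The RefSeq promoter of Mt2 (GRCm38.p6, chr8:94172368-94172667, plus strand) is shown because the metallothioneins reached IR levels in IR-Ori 2, 3 and 4. Capitals mark metal response elements, searched on both strands as TGCGCNC or TGCACNC. The window held 4, that of Mt1 held 3, and 25.7% of all promoters held at least 1.
Mt2: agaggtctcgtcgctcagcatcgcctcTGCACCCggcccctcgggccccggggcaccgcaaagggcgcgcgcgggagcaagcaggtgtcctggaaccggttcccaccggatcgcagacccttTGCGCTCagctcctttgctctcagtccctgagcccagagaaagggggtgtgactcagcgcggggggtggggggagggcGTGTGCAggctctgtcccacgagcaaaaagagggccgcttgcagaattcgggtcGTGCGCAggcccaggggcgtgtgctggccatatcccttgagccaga

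**Figure D3:**
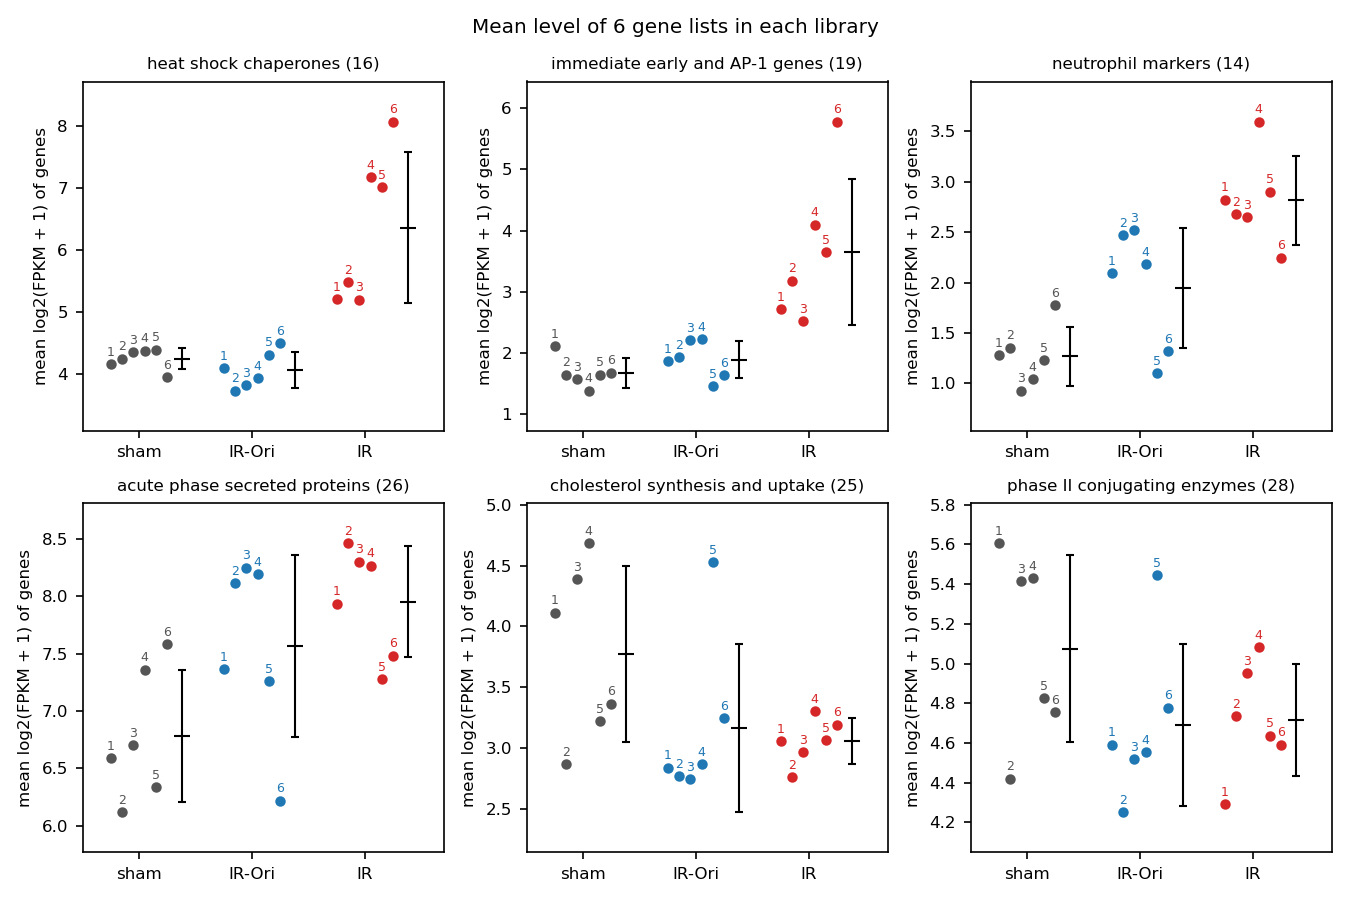
Mean log2(FPKM + 1) of the members tested of 6 gene lists (vertical axes, each with its own range) in each library, numbered as labelled, by group, with mean and SD as black bars. For neutrophil markers IR-Ori 1 to 4 lie at 2.09 to 2.52 and IR-Ori 5 and 6 at 1.10 and 1.32, with sham between 0.926 and 1.78.

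Wound repair genes, the stress-induced growth brake and oxidative stress genes differed among themselves. The 19 matricellular, fibrinolysis and repair genes had 0 calls and a median of 0.64, against 3.04 in IR. The median was 0.02 without IR-Ori 4, 0.35 without IR-Ori 3 and 0.06 with limma on log2(FPKM + 1). Thbs1 (0.36, -0.73 to 1.45) and Ccn1 (0.03, -1.20 to 1.26), extracellular matrix proteins, had overlapping levels in both groups and IR estimates of 3.93 each. Cdkn1a, the cell cycle inhibitor p21, had 13.8 to 17.2 FPKM in IR-Ori 2, 3 and 4 and at most 7.47 in sham (1.97, 0.06 to 3.88).

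Hmox1, which breaks down haem, was at 1.33 (-0.05 to 2.71) and Gdf15, a stress hormone, at 1.47 (-0.07 to 3.01). The NRF2 target Srxn1 had 8.90 to 22.8 FPKM in sham and 15.1 to 30.8 in IR-Ori (0.62, -0.41 to 1.65), and Nqo1 was at -0.23 (-1.06 to 0.59). Over all 30 NRF2 and antioxidant genes the median was -0.18 with 0 calls.

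Hepatocyte metabolic genes were mostly lower in estimate, but that direction was not particular to them. Over all genes, 7458 of 14595 estimates were below 0. For proteasome subunits it was 28 of 28 (median -0.23) and for cytosolic ribosomal proteins 26 of 32 (-0.16). For nuclear-encoded respiratory chain subunits it was 32 of 33 (-0.34). All 25 genes of cholesterol synthesis and uptake had estimates below 0, with a median of -0.62 and 0 calls, against -1.09 in IR. The mean log2(FPKM + 1) of the list was 4.11 to 4.68 in sham 1, 3 and 4 and 2.87 to 3.36 in the other 3 sham libraries. It was 4.53 in IR-Ori 5 and 2.75 to 3.24 in the other 5 IR-Ori libraries. Among the 12 sham and IR-Ori libraries, sham 1, 3 and 4 and IR-Ori 5 are also the 4 with the lowest mitochondrial share, 10.3% to 14.1%. IR 4, 5 and 6, with shares of 14.5%, 9.65% and 6.52%, had list means of 3.30, 3.07 and 3.19. Members of the cholesterol list at an unadjusted p under 0.05 numbered 3 and all were lower, where 3.66% of all genes were. That became 21 without IR-Ori 5, 12 without sham 2, 8 without sham 5, 5 without sham 6, 1 without sham 3 or IR-Ori 1, 2, 3 or 4, and 0 without sham 1 or 4. Over all genes, lower ones numbered 534, 1898 without IR-Ori 5, 1763 without sham 2, 856 without sham 5, and 251 and 281 without sham 1 or 4. The list median was -1.18 without IR-Ori 5, -0.41 without sham 4 and -0.30 among libraries with a mitochondrial share of at least 15%. The share's part in these levels was not otherwise tested.

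Fatty acid synthesis genes had a median of -0.70 over 17 members with 0 calls. The median was -0.45 without sham 1, -0.29 without sham 4 and -0.15 among libraries with a mitochondrial share of at least 15%. Members lower at an unadjusted p under 0.05 numbered 2 and were 0 among those libraries, where 3.66% of all genes were lower in the main fit. They numbered 9 without IR-Ori 5, 8 without sham 5, 6 without sham 6, 4 without sham 2 or IR 1 and 1 without sham 1. Lower genes over all moved the same way, from 534 to 1898 without IR-Ori 5, 856 without sham 5 and 773 without sham 6. They numbered 1763 without sham 2, 684 without IR 1 and 251 without sham 1. Fasn, the fatty acid synthase, had 6.80, 20.7 and 87.7 FPKM in sham, 10.2, 14.4 and 42.1 in IR-Ori and 5.66, 6.91 and 8.05 in IR. Every IR-Ori library lay within the sham range and above every IR library. Its estimate was -0.67 (-1.63 to 0.30), and IR was at -2.17 (edgeR adjusted p = 0.010). The desaturase gene Fads2 was at -1.32 (-2.44 to -0.20) and Acat2, of cholesterol synthesis, at -0.93 (-1.71 to -0.14), neither passing after adjustment.

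Cyp7a1, the rate-limiting enzyme of bile acid synthesis, had 12.0, 22.6 and 70.5 FPKM in sham, 4.96, 14.4 and 55.8 in IR-Ori and 1.87, 3.72 and 5.69 in IR. IR-Ori 2 and 4, at 4.96 and 5.74, lay below sham, and the other 4 lay within its range. The estimate was -0.78 (-1.87 to 0.31), and Cyp7a1 was higher in IR-Ori than in IR by edgeR, at 2.36 (adjusted p = 0.024), where 0.596% of all genes were higher. That adjusted p was 0.0669 without IR 4 and 0.0600 without IR 5. Among libraries with a mitochondrial share of at least 15%, 0 genes were called higher in IR-Ori than in IR. Cyp8b1, which sets the cholic acid share of bile, was at -1.35 (-2.55 to -0.15), while IR was at 0.12. Ppp1r3b, a glycogen-targeting subunit, had 21.7 to 52.5 FPKM in sham and 14.6 to 35.1 in IR-Ori (-0.43, -1.21 to 0.34), with IR at -2.30.

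The 28 phase II conjugating enzymes had a median of -0.51 and 0 calls, and the 30 drug-metabolising cytochrome P450 genes -0.38 and 0 calls. With the mitochondrial share as a covariate these medians were -0.30 and -0.13. Gsta3, a glutathione transferase, had 123 to 296 FPKM in sham and 37.2 to 135 in IR-Ori, except for 263 in IR-Ori 5 (-1.03, -1.93 to -0.14). Cyp2e1 was at -0.98 (-2.04 to 0.08). Secreted hepatocyte products had a median of -0.21 over 14 genes, and Alb was at -0.14 (-0.80 to 0.52). Of the clock genes, Per1 was at 0.66 (0.00 to 1.32) and Dbp at -0.69 (-1.61 to 0.22). The insulin-like growth factor binding protein gene Igfbp1 was at -0.68 (-2.38 to 1.01).

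**Figure D4:**
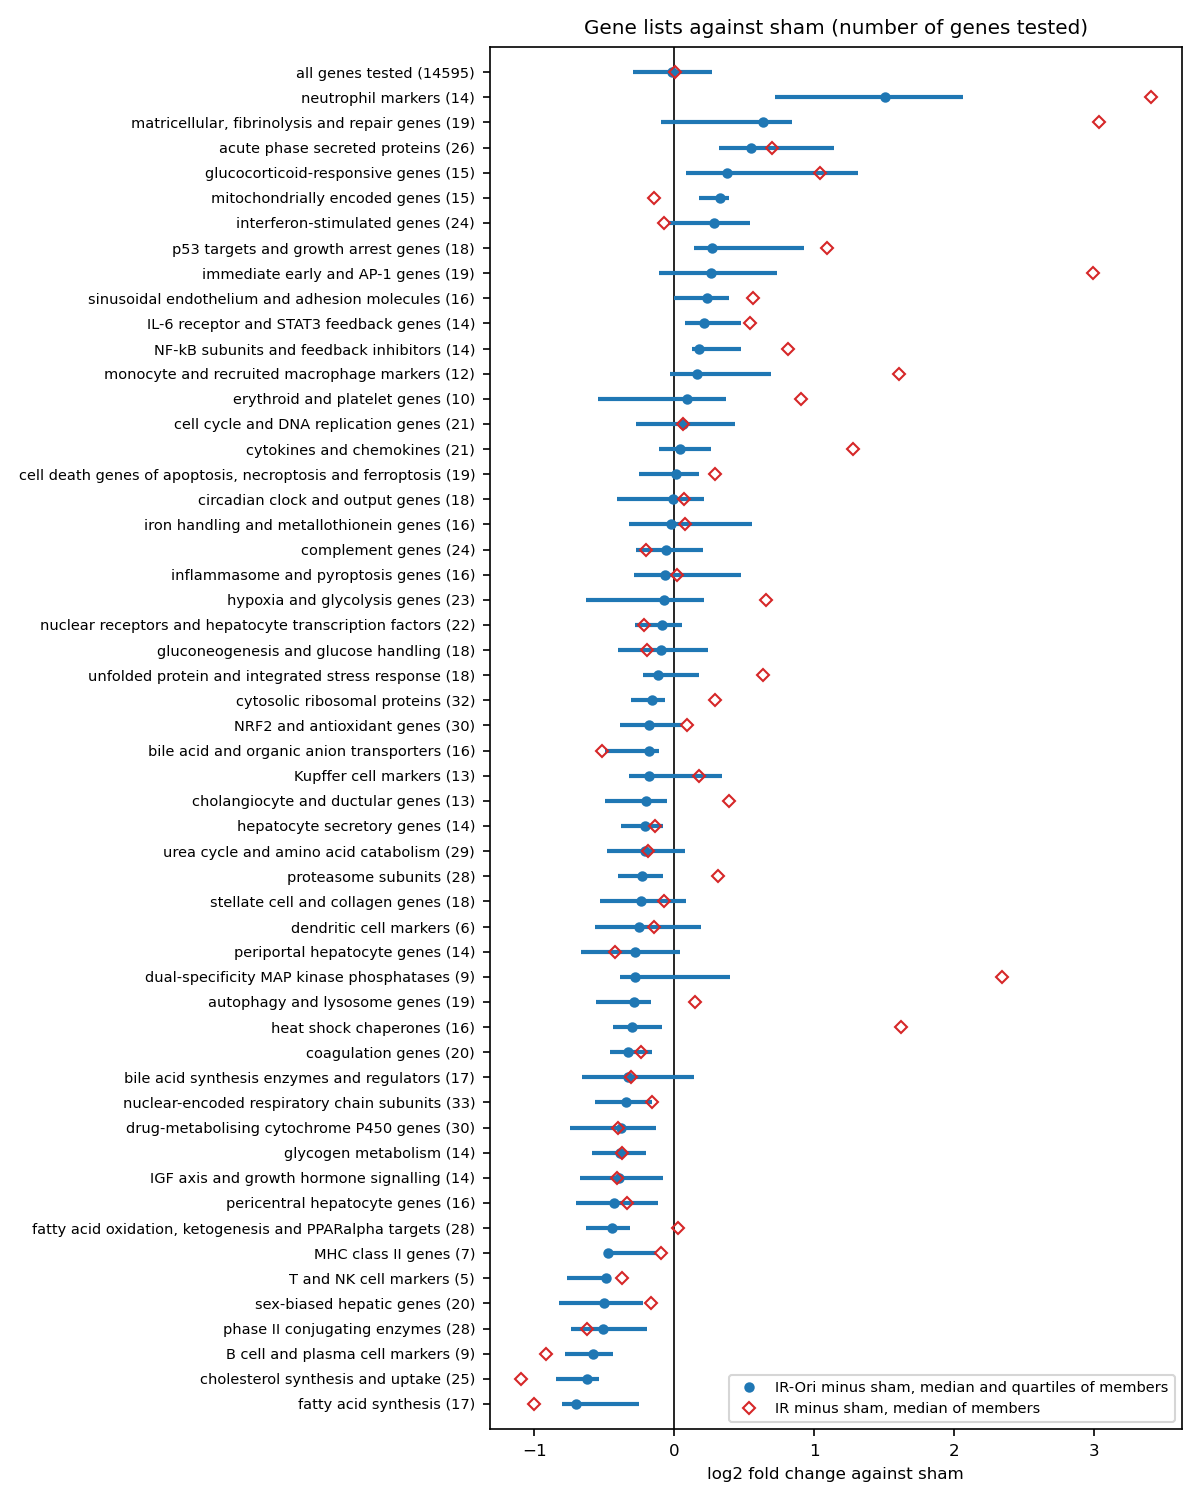
Median log2 fold change against sham (horizontal axis) of each gene list with at least 5 genes tested, with quartiles as bars, for IR-Ori (circles), and the median for IR (diamonds). The number of genes tested stands in parentheses. Neutrophil markers reach 1.51 in IR-Ori and 3.41 in IR, and heat shock chaperones -0.30 and 1.62.

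Igfbp5, an insulin-like growth factor binding protein that ranked 7 of all genes by p, had 0.47, 2.81 and 6.69 FPKM in sham and 0.39, 0.665 and 1.36 in IR-Ori, with 0.08 to 0.40 in IR. Only sham 6, at 0.47, lay inside the IR-Ori range among the sham libraries. The estimate was -2.08 (-3.07 to -1.09, edgeR adjusted p = 0.374), and DESeq2 called it lower (adjusted p = 0.0169).

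Other genes were picked after their values were seen. Plcb4, a phospholipase C, had 0.17 to 0.57 FPKM in sham and 0.47 to 1.42 in IR-Ori (1.35, 0.73 to 1.97), and IR-Ori 5 was the only IR-Ori library below 0.7. Mrap, a melanocortin receptor accessory protein gene, had 18.6 to 34.1 FPKM in sham and 107 to 179 in IR-Ori 2, 3 and 4 (1.74, 0.83 to 2.65). Zfp51, a zinc finger gene, had 1.49 to 2.68 FPKM in sham and 3.19 to 3.78 in all 6 IR-Ori libraries (0.74, 0.37 to 1.11), so the groups did not overlap. DESeq2 called each of these 3 higher. IR was also higher than sham in edgeR, at 1.01 for Plcb4 (adjusted p = 0.041), 1.72 for Mrap (0.021) and 0.85 for Zfp51 (0.0075). Between IR-Ori and IR the estimates were 0.34, 0.02 and -0.11, and none passed. The 4 genes that DESeq2 called lower were Igfbp5, Olfml1, Xist and Smoc2. The 5 genes whose IR-Ori levels lay wholly below sham were Caln1, Chrna2, Eml2, Mfge8 and Smoc2.

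**Figure D5:**
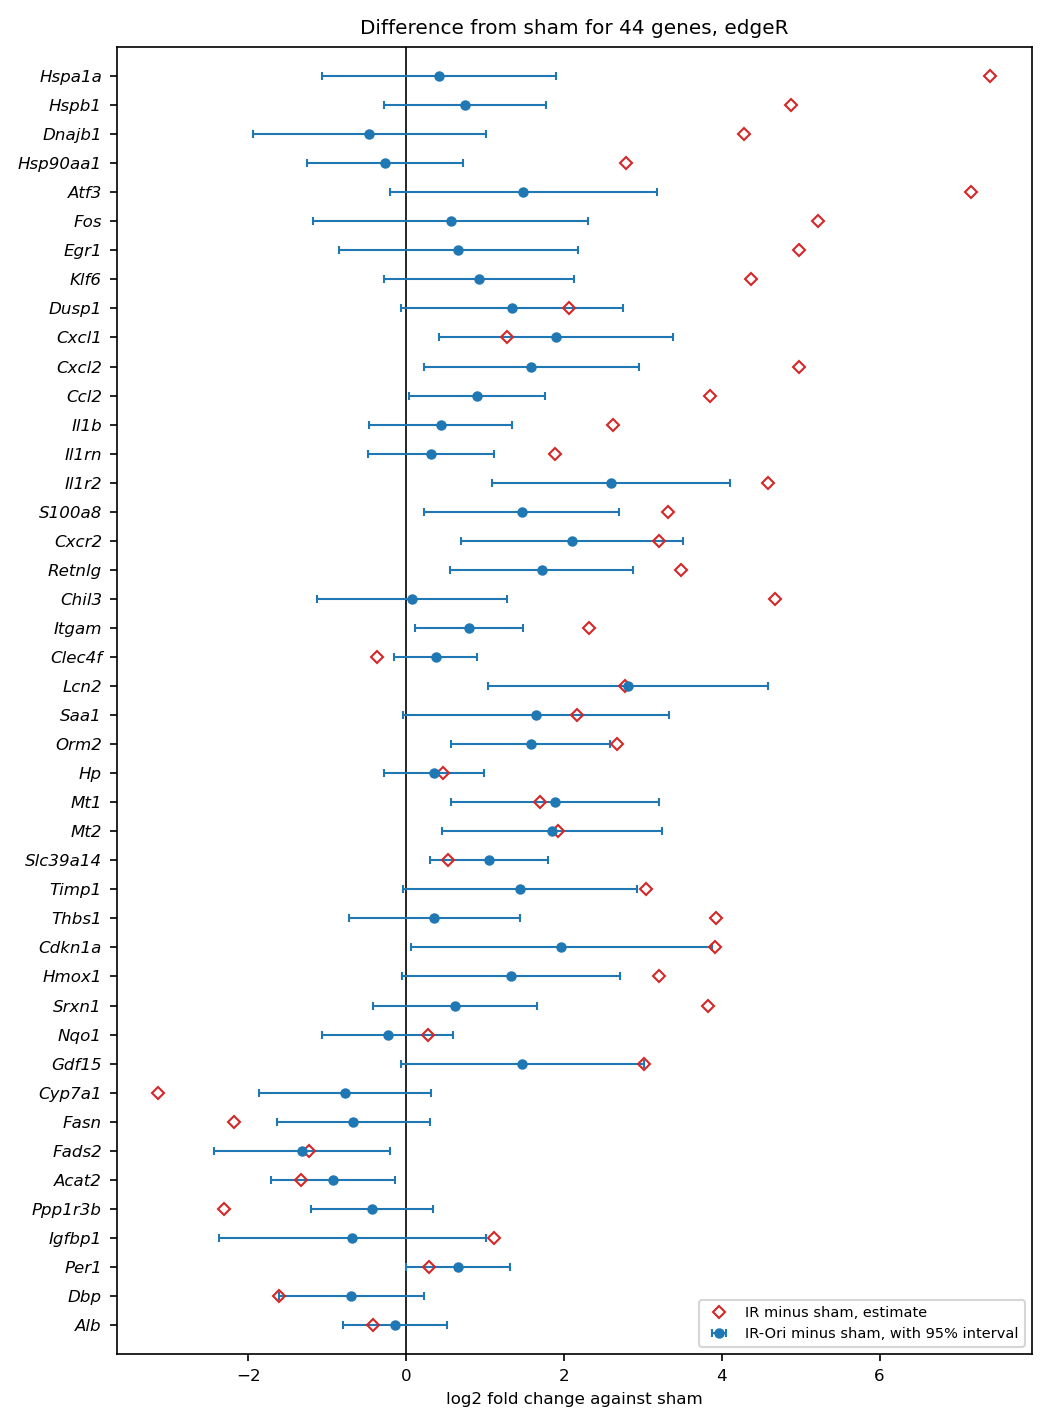
Log2 fold change against sham (horizontal axis) of 44 genes with edgeR, for IR-Ori with its 95% interval (circles) and for IR as an estimate (diamonds). For Hspa1a IR-Ori is at 0.42 and IR at 7.40, while for Lcn2 they are at 2.81 and 2.78.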

How the data were processed

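The submitters' processing notes name cutadapt 1.9.1, HISAT2 2.2.1, the build GRCm39 and DESeq2, with no role or order. The sources used here do not name the counting tool or the annotation. In the deposited table stands an unscaled count per gene and library, and FPKM made by the authors. Rebuilding FPKM from counts, exonic gene size and library totals gave 100% of the deposited values within 0.0051.

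Counts of 14595 of 56691 genes passed filterByExpr (minimum count 10, total 15) and were fitted with edgeR 4.0.16 (trimmed mean of M-values scaling, quasi-likelihood F test, 1 model of 18 libraries, no replicate block), with Benjamini-Hochberg adjustment over all genes. Intervals are the estimate plus or minus the t quantile times the standard error. Replicates differed by more than counting noise (common biological coefficient of variation 0.398). The pipeline was tested on simulated data. Biotypes came from GENCODE M21, matched by identifier.

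The members and the 54 gene lists were chosen with earlier results of these data known. Named genes are members of lists with the smallest p (up to 2 where none passed), genes fixed by name, and genes chosen after their values were seen, among them Tifa, Mt2, Plcb4, Mrap and Zfp51. Some genes of this rule are not reported here. Alternatives were DESeq2 1.42.0, limma 3.58.1 on log2(FPKM + 1), other scalings, a covariate for the mitochondrial share, a replicate block and leaving out each library. Leaving out the IR libraries was added after seeing the data.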

Additional observations from a re-analysis of the deposited data

Results flagged for a closer look

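Within sham and IR-Ori, the highest or lowest of 6 libraries was compared with the rest for the 98 genes examined most closely and for the mitochondrial share, 198 groups of values in all. In 9 the gap to the nearest library exceeded 0.625 of the group's range, and chance gives about 1 in 20. On log2(FPKM + 1), sham 5 stood apart for Hspb1 (22.9 FPKM against 6.71 to 7.74 in the others) and Timp1 (1.29 against 0.26 to 0.54). Sham 3 stood apart for Hmox1 (39.63 against 5.64 to 11.4). Sham 2, the library with the largest mitochondrial share (42.8%), stood apart for Cat (311.3 against 714 to 1063) and Alb (6522 against 18260 to 27702). Sham 1 stood apart for Atf4 (46.41 against 75.2 to 86.5). IR-Ori 5 stood apart for its mitochondrial share (14.11% against 26.8% to 32.0%), for Casp1 (0.92 FPKM against 1.58 to 2.04) and for Lgals3 (1.46 against 3.71 to 5.75).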

How the results depend on the processing

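Of the 29 alternatives, DESeq2 alone gave calls between IR-Ori and sham, with 34 genes higher and 4 lower against 0 and 0, and the cause was not tested. It left the adjusted p undefined for 16 genes. The other 28 gave 0 and 0, and their smallest adjusted p was 0.0723, without IR-Ori 5. Leaving out 1 library kept both counts at 0 to 0. With the mitochondrial share as a covariate, 1018 genes were higher and 382 lower at an unadjusted p, and among libraries with a share of at least 15%, 867 and 396. Without the filter 30479 genes were tested, with 1733 and 1071. The difference in mitochondrial share ranged from 2.91 to 9.4 points when 1 library was left out.

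The labels number libraries 1 to 6 in every group. Deviations of same-numbered sham and IR-Ori libraries correlated between -0.36 and 0.302, and 0 of 6 correlated best with their own number, so the numbers were not taken as pairs. The fit with a replicate block called 0 and 0, with 736 and 605 genes at an unadjusted p.

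Genes lower in IR-Ori than in IR numbered 439, and 140, 177 and 206 without IR 4, 5 or 6, 156, 215, 224, 271 and 197 without IR-Ori 1, 2, 3, 4 or 6, and 737 and 665 without IR 1 or 2. They numbered 884 with DESeq2, 135 with the block and 116 with the covariate. With limma they numbered 87 on log2(FPKM + 1) and 69 on log2(FPKM + 0.1). Among libraries with a share of at least 15% they numbered 15. That cut left out sham 1, 3 and 4, IR-Ori 5 and IR 4, 5 and 6, so the groups were also smaller. Summed FPKM of the heat shock chaperones was 4438, 5226 and 8378 in IR 4, 5 and 6 and 1140 to 1466 in IR 1, 2 and 3. The part of the share in the lower counts was not tested apart from the loss of these libraries. Of the 16 chaperones, 8 were lower with the block, the covariate or limma, and 3 among libraries with a share of at least 15%. Of the 19 immediate early genes, 7 were lower with limma, 5 with the block, 4 with the covariate and 2 among those libraries. Genes higher in IR-Ori than in IR numbered 87, and 446 with DESeq2, 28 with the block, 20 with the covariate and 0 among those libraries. They numbered 12, 11 and 23 without IR 4, 5 or 6 and 319, 175 and 250 without IR 1, 2 or 3. Without IR-Ori 1 or 6 they numbered 26 and 29, and without IR-Ori 5 they numbered 192. The sign of the named genes was followed in IR-Ori against sham only. edgeR called none of them there, so a called direction had little room to reverse. Their estimates changed sign 32 times over the alternatives, with no call on either side.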

Other observations

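Some noncoding classes, picked after their values were seen, had higher medians than protein-coding genes in IR-Ori against sham. The median log2 fold change was 0.16 for 338 long intergenic RNA genes, 0.18 for 378 antisense genes and 0.27 for 236 genes awaiting experimental evidence, against -0.03 for 12511 protein-coding genes. In IR against sham the same medians were -0.29, -0.32, -0.10 and 0.02. The 53 bidirectional promoter RNA genes were at -0.07 in IR-Ori against sham and the 385 processed pseudogenes at -0.12. At an unadjusted p under 0.05, 10.4% of the long intergenic and 6.08% of the protein-coding genes were higher in IR-Ori. The sources used here do not say whether counting used strand, so antisense reads cannot be told apart from those of the partner gene.

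Some genes had their highest levels in IR-Ori rather than in IR, and were picked after their values were seen. Porcn, which acylates Wnt proteins, had 1.30 to 2.59 FPKM in sham, 1.83 to 8.12 in IR-Ori and 0.78 to 2.14 in IR. Its log2 fold change was 1.32 against sham (edgeR adjusted p = 0.410) and 1.92 against IR (adjusted p = 0.011). The zinc finger gene Gm14327 had 2.18 to 4.04 FPKM in sham, 4.52 to 13.8 in IR-Ori and 1.39 to 5.16 in IR. It was at 1.44 against sham (edgeR adjusted p = 0.374), at 1.42 against IR (adjusted p = 0.025), and its sham and IR-Ori levels did not overlap. The latter p was between 0.0596 and 0.0707 without IR-Ori 3 or 4 or IR 4 or 6. Neither Porcn nor Gm14327 was called higher than in IR among libraries with a mitochondrial share of at least 15%, where 0 genes were.

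Epcam, a surface protein of bile duct cells, was at -1.04 against sham (95% interval -1.79 to -0.30), with 0.23 to 0.91 FPKM in IR-Ori and 0.68 to 1.22 in sham. Col14a1, a collagen of stellate cells and fibroblasts, was at -0.95 (-1.52 to -0.39), with 0.98 to 1.83 FPKM against 1.53 to 3.84. Neither passed after adjustment, and each had the smallest p of its marker list. The 13 cholangiocyte and ductular genes tested had a median of -0.20, with 3 estimates above 0 and 0 calls. The 18 stellate cell and collagen genes had a median of -0.24, with 7 above 0 and 0 calls.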
